A study of Mus musculus with 80 samples.

Results

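The genes described here encode the machinery that copies DNA in S phase. The 31 genes were chosen by name, as gene rows of the deposited tables, from 27128 gene rows in all. Of these, 30 matched a row directly, and Gins2 matched the older name 4833427B12Rik. They comprise the 6 subunits of the MCM2-7 helicase, 4 initiation factors, 7 enzymes and clamps of the fork, 3 genes of nucleotide supply, 6 of repair and checkpoint, 2 linked to histones and 3 cell cycle regulators. All cells came from testes of male mice at postnatal day 5.5, of the B6;CBA-Tg(Pou5f1-EGFP)2Mnn/J line. Every group thus carried the Pou5f1-EGFP transgene, in which Oct4 (Pou5f1) regulatory sequence drives a green fluorescent protein, and every cell was sorted as Oct4-GFP+. CD87, the urokinase receptor, is the product of Plaur. Sorted CD87- and CD87+ cells gave 2 libraries each, and the other set consisted of 71 single cells sorted as Oct4-GFP+ and KIT-, each assigned by the authors to a cluster, I to IV. The labels name no animal and do not say whether the libraries of a CD87 group came from separate animals or pools. The limma p-values below therefore reflect how far these 4 libraries spread, and that spread may be technical.

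DNA replication is prepared in G1, when CDC6 helps to load the MCM2-7 ring onto origins as an inactive double helicase. In S phase, MCM10 and the GINS complex help to turn that ring into a working helicase, primase and polymerase alpha lay down primers, and PCNA holds the polymerases on DNA. Many of these genes are transcribed at the border of G1 and S under control of E2F factors. Spermatogonia of the neonatal testis divide by mitosis to build the germ line, and each division needs a round of DNA replication.

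The DNA in front of these genes was searched for E2F words because the members share this known control. RefSeq promoter windows (build GRCm38.p6, 250 bases before to 50 after the start) were found for 23 of the 31 members. The 4 words TTTCCCGC, TTTCGCGC, TTTGCCGC and TTTGGCGC were searched on both strands. At least 1 of them lay in the windows of 8 members, or 34.8% of 23. The share was 32.8% of 64 other replication pathway genes and 2.61% of 27025 genes with a window. A gene with several windows was counted if any of them held a word. The windows of 4 genes are shown on the gene's strand, for the 250 bases before the start and with the words in capitals. They are the initiation and helicase genes that held a word in those bases. Mcm2 and Mcm10 held 0 words, and Mcm3 held 2 but 0 of them wholly within those bases. Cdc6 lies at chr11:98907901-98908150 on the plus strand, Mcm5 at chr8:75109259-75109508 on the plus strand, Mcm6 at chr1:128359706-128359955 on the minus strand, and Mcm7 at chr5:138171884-138172133 on the minus strand.
Cdc6: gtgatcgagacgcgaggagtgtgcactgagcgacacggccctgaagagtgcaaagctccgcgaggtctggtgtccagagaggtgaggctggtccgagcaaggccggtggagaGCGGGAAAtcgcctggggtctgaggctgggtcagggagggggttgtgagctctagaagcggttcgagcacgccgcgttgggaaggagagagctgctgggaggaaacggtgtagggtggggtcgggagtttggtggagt
Mcm5: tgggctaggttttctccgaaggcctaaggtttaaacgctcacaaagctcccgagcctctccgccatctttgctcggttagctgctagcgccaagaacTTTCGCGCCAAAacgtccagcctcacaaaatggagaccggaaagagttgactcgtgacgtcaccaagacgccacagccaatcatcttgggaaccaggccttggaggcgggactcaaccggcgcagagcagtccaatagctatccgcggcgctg
Mcm6: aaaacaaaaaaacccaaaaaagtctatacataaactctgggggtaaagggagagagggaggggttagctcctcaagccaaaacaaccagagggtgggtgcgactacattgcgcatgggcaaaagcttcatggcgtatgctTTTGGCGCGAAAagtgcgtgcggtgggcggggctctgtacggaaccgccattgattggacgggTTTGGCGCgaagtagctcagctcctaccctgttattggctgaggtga
Mcm7: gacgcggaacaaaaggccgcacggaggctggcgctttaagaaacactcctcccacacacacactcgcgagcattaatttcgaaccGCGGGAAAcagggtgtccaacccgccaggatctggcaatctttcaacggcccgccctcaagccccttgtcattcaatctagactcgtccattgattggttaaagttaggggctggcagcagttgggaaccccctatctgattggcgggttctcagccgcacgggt
Cdc6 held a single word, which began 138 bases before the start. Mcm5 held a pair of overlapping words, 153 and 149 bases before the start. Mcm6 held 3 words, at 110, 106 and 47 bases, of which the first pair overlap. Mcm7 has 2 windows in RefSeq, and the one shown held a single word, 165 bases before the start. The box CCAAT, on either strand, lay in 69.6% of the members' windows and 41.1% of all, and TATAAA in 4.35% and 15.7%. The members' windows were richer in G and C, with a median of 60.2% against 52.8% for all genes. These matches describe letters and do not show that a factor bound there.

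Across the sorted libraries, levels are given in TPM, a transcript abundance scaled for gene length and to the library. The deposited TPM of a library summed to between 580440 and 635203, so the libraries were not at exactly the same total. The lowest level of any member was 2.95 TPM, so all 31 passed the filter on low values in every library. Germ cell markers were present in all 4, with Ddx4, a germ cell RNA helicase, at 53.4 to 81.03 TPM. Plaur was at 0.46 and 0.97 TPM without CD87 and at 3.53 and 8.92 TPM with it. CD87+ library 2 listed the fewest genes above 0, with 12063 against 15147 to 16267 in the others. Macrophage markers moved with CD87. The summed TPM of the 12 listed was 15.1 and 11.7 in the CD87- and 364 and 281 in the CD87+ libraries. In both CD87- libraries, the markers Lyz2, Tyrobp, C1qa, C1qb and Laptm5 had a listed value of 0. They passed the filter on low values only through the CD87+ libraries, which fixed their direction. Cd68, Fcer1g and Apoe passed it in the CD87- libraries as well. Apoe was at 4.28 and 4.48 against 189.39 and 127.66 TPM. Fcer1g was at 7.76 and 5.83 against 18.78 and 47.04 TPM, and Cd68 at 2.67 and 1.4 against 11.3 and 19.51 TPM. C1qc, Csf1r, Adgre1 and Ptprc did not pass the filter. Sertoli markers summed to 75.6 and 140 TPM in CD87- and to 70.2 and 12.8 TPM in CD87+ cells, myoid markers to 31.8 and 21.4 against 57.4 and 81.3 TPM, and endothelial markers to at most 7.15 TPM. Leydig markers summed to at most 5.26 TPM, and Cyp11a1, Cyp17a1 and Hsd3b1 were at 0 throughout. The part of other cells in the values below was not tested, and in bulk samples fewer cells of a type and less RNA per cell cannot be told apart.

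The first comparison asked whether replication genes differ between CD87+ and CD87- germ cells. None of the 31 passed the threshold of limma, a linear model that shares its estimate of spread across genes, at a Benjamini-Hochberg adjusted p of 0.05. Among all 12715 genes tested, 0.0236% were called higher (3 genes) and 0.0% lower. Of these 3 genes, 2 were on the list of macrophage markers. On log2(TPM + 1), 22 members were higher in CD87+ cells and 9 lower, where 6486 of the 12715 genes were higher. Their median log2 difference was 0.25, against 0.015 over all genes. At an unadjusted limma p under 0.05, 1 member was higher and 0 lower, against 3.37% of all genes that were higher. For 12 members both CD87+ libraries lay above both CD87- libraries, and for 0 both lay below. The same held for 20.4% of all genes upward and 14.5% downward. Without CD87+ library 1, limma called 3 members, Prim1 and Chaf1b higher and Gins1 lower, among 2988 genes in all, and without any other library 0 members. The members' median was 0.083 without CD87+ library 1 and to 0.084 without CD87- library 1.

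**Figure D1:**
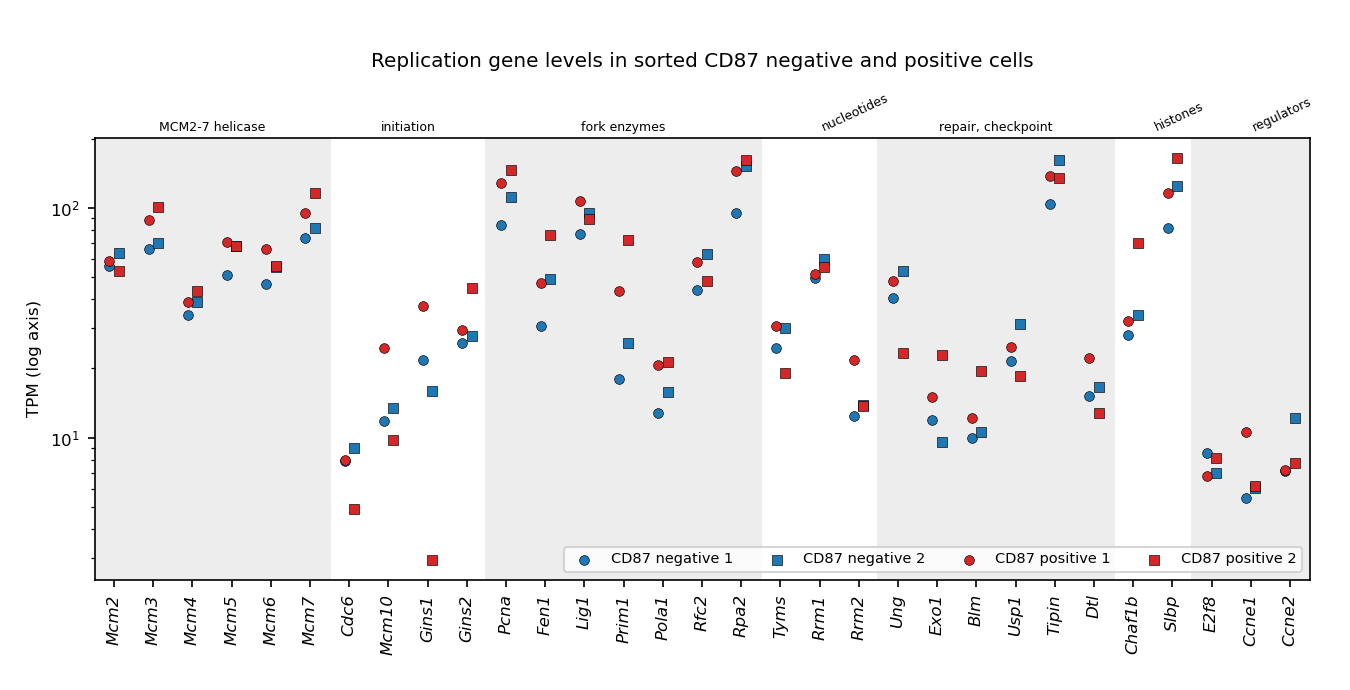
TPM of the 31 replication genes (log axis) in the 4 sorted libraries, grouped by role. Blue marks CD87- and red CD87+ libraries, circles library 1 and squares library 2. Prim1 shows the widest gap between the groups, and Gins1 ranges from 2.95 to 37.54 TPM within the CD87+ pair.

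The MCM2-7 subunits, which form the ring that unwinds DNA, were between 34.05 and 116 TPM. Mcm3 stood at 66.29 and 70.26 TPM in CD87- and at 88.11 and 100.72 TPM in CD87+ libraries, a log2 difference of 0.46 ± 0.26 (SE, n = 2 libraries per group; limma adjusted p = 0.863). Mcm7 stood at 73.87 and 81.69 against 95.1 and 116 TPM, a log2 difference of 0.43 ± 0.26. For both genes the groups did not overlap, and the difference was less than its SE multiplied by 2. Mcm4 was at 34.05 and 38.76 against 39 and 43.4 TPM. Mcm5 and Mcm6 did not overlap either, but narrowly, with Mcm5 at 51.04 and 68.49 against 70.9 and 68.53 TPM and Mcm6 at 46.64 and 55.07 against 65.95 and 55.62 TPM. Mcm2 was the exception, at 55.78 and 63.4 against 58.77 and 53.34 TPM, with the groups overlapping. Although the subunits join in a ring in equal numbers, their transcripts differed in level, and in each library Mcm7 was the highest and Mcm4 the lowest. The ratio of Mcm7 to Mcm4 was 2.17 and 2.11 in CD87- and 2.44 and 2.67 in CD87+ libraries.

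Among the initiation factors, 2 were higher and 2 lower. Gins2, a subunit of the GINS complex that activates the helicase, was at 25.84 and 27.73 TPM in CD87- and at 29.51 and 44.76 TPM in CD87+ libraries. Gins1, its partner in the same complex, was at 21.88 and 15.9 against 37.54 and 2.95 TPM. The CD87+ libraries thus held both the highest and the lowest Gins1 value, and the log2 difference of -0.67 ± 0.88 (SE, n = 2 libraries per group; limma adjusted p = 0.91) became 0.97 without CD87+ library 2. Cdc6, the licensing factor, was at 7.88 and 9.05 against 8.01 and 4.89 TPM, a log2 difference of -0.37 ± 0.49. Mcm10 was at 11.81 and 13.43 against 24.5 and 9.75 TPM. For Gins1, Cdc6 and Mcm10 the groups overlapped, with CD87+ library 2 lowest each time.

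All 7 fork genes were higher in CD87+ cells, with a median log2 difference of 0.50, though Rfc2 only by 0.0038 and, after either rescaling described below, it was lower. Prim1, the catalytic subunit of primase, was at 17.99 and 25.79 TPM in CD87- and at 43.52 and 72.34 TPM in CD87+ libraries. Its log2 difference of 1.34 ± 0.36 (SE, n = 2 libraries per group; limma adjusted p = 0.824) was the largest of the members. It was also the single member with an unadjusted limma p under 0.05, at 0.00523. Both CD87+ libraries lay well above the CD87- pair. Pcna, the sliding clamp, was at 84.12 and 111.33 against 127.81 and 146.7 TPM, a log2 difference of 0.50 ± 0.27 (limma adjusted p = 0.863). Pola1, the catalytic subunit of polymerase alpha and the partner of primase, was at 12.84 and 15.85 against 20.66 and 21.42 TPM. The groups did not overlap for these 3 genes. Fen1, the flap nuclease that trims Okazaki fragments, was at 30.7 and 48.8 against 47.15 and 75.86 TPM, and Rpa2, a subunit of the protein that coats single-stranded DNA, at 95.25 and 152.19 against 143.95 and 160.74 TPM. In both, CD87- library 2 reached into the CD87+ range. Lig1, the ligase that seals Okazaki fragments, was at 76.67 to 107.17 TPM and Rfc2, a subunit of the clamp loader, at 43.98 to 63.2 TPM, both with overlap.

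The genes of nucleotide supply overlapped between the groups. Rrm1, the large subunit of ribonucleotide reductase, was at 49.47 and 59.99 TPM in CD87- and at 51.57 and 55.29 TPM in CD87+ libraries. Rrm2, its small subunit, was at 12.44 and 13.92 against 21.79 and 13.78 TPM. Tyms, which makes thymidylate, ranged from 19.2 to 30.67 TPM. Its processed copy Tyms-ps had a row of its own, at 0 TPM in 3 libraries and 0.82 TPM in CD87+ library 1, so reads of the copy and the gene may have been split between the rows.

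In repair and checkpoint, Exo1, a mismatch repair exonuclease, was at 11.92 and 9.61 TPM in CD87- and at 14.96 and 22.9 TPM in CD87+ libraries, a log2 difference of 0.74 ± 0.40 (SE, n = 2 libraries per group; limma adjusted p = 0.863). Blm, the Bloom helicase, was at 9.97 and 10.54 against 12.12 and 19.44 TPM, a log2 difference of 0.54 ± 0.42. Neither gene overlapped between the groups. Ung, which removes uracil from DNA, was at 40.56 and 53.28 against 47.82 and 23.33 TPM, and its log2 difference of -0.46 ± 0.39 became 0.040 without CD87+ library 2. Tipin, part of the fork protection complex, was the highest of this role at 103.67 and 161.81 against 138.19 and 134.5 TPM. Dtl, which marks proteins for destruction at PCNA, and Usp1, a deubiquitinase of PCNA, ranged from 12.8 to 22.2 and from 18.63 to 31.2 TPM, with overlap.

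Of the histone-linked pair, Chaf1b, a subunit of the chromatin assembly factor, was at 27.99 and 34.04 TPM in CD87- and at 32.02 and 70.43 TPM in CD87+ libraries, a log2 difference of 0.61 ± 0.40 (SE, n = 2 libraries per group; limma adjusted p = 0.863). Slbp, which binds the stem-loop of histone mRNA, was at 81.35 and 124.62 against 116.41 and 164.58 TPM. Both overlapped, and CD87+ library 2 was the highest in each. The regulators, with Cdc6, were the lowest members by mean TPM. Ccne1, cyclin E1, was at 5.47 and 6.04 against 10.6 and 6.15 TPM, and Ccne2, cyclin E2, at 7.13 and 12.12 against 7.23 and 7.74 TPM. E2f8, a repressor of the E2F family, was at 8.6 and 7.03 against 6.84 and 8.19 TPM.

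**Figure D2:**
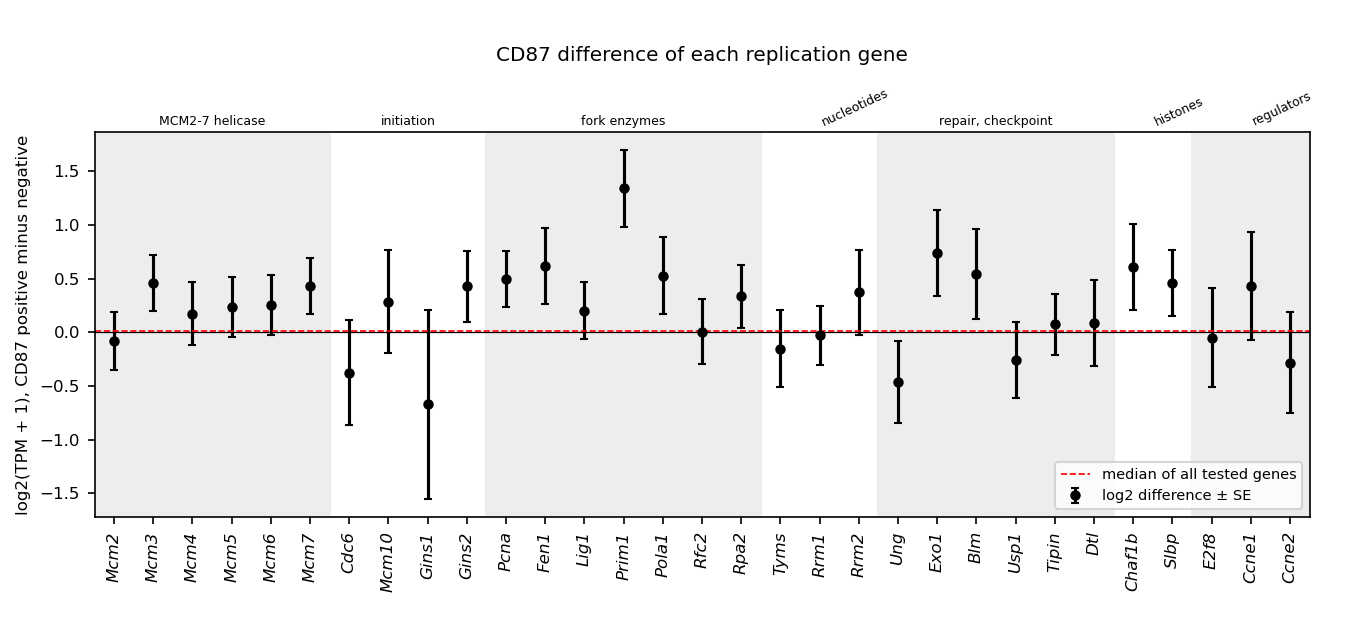
Log2 difference of each member, CD87+ minus CD87-, on log2(TPM + 1), with its limma SE (n = 2 libraries per group). The solid line is 0, and the dashed line is the median of all tested genes, 0.015. Fork genes lie at or above 0, and Prim1 is highest at 1.34.

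The library that set the direction was often CD87- library 1, in which 21 of the 31 members had their lowest value. Pou5f1 was lowest there too, at 18.34 TPM against 59.04 TPM in CD87- library 2 and 47.35 and 46.52 TPM in the CD87+ libraries. Any link between the 2 was not tested. In that library a single row, LOC672857, held 31.2% of all TPM, against 23.9% to 24.9% in the other 3. After each library was rescaled to the same total without that row, 19 members were higher and 12 lower. The members' median was then 0.14 and that of all genes -0.11, so the distance between them, 0.25, was close to the 0.24 before rescaling. CD87- library 1 was then lowest for 9 members and CD87+ library 2 for 15, and 10 members were higher and 4 lower without overlap, against 16.1% and 18.7% of all genes. With the libraries scaled to a median log2 ratio of 0, those counts were 8 and 4, against 15.6% and 19.9% of all genes. Under both scalings Tipin, Dtl and Rfc2 changed from higher to lower, which left 2 of 6 repair and checkpoint genes and 6 of 7 fork genes higher. The 2 CD87+ libraries also differed more from each other than the CD87- pair. The standard deviation over members of the log2 difference within the pair was 0.80 for CD87+ and 0.27 for CD87-.

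Among 73 other genes of the pathway that could be tested, 55 were higher and 18 lower in CD87+ cells, with a median log2 difference of 0.28, and 0 passed the limma threshold. Over all genes, 6486 of 12715 were higher. Without overlap, 26 were higher and 2 lower, against 20.4% and 14.5% of all genes. The 5 with the smallest p were all higher. Tk1, the thymidine kinase of S phase, was at 21.05 and 23.58 against 45.78 and 49.56 TPM, a log2 difference of 1.06 ± 0.30 (SE, n = 2 libraries per group; limma adjusted p = 0.85). Uhrf1, which guides maintenance DNA methylation, was at 59.98 and 60.17 against 88.68 and 97.38 TPM. Orc2, an origin recognition subunit, was at 13.96 and 20.04 against 24.52 and 43.19 TPM, Asf1a, a histone chaperone, at 20.22 and 27.35 against 30.34 and 60.77 TPM, and Pold1, the catalytic subunit of polymerase delta, at 53.04 and 61.64 against 74.11 and 91.42 TPM. None of the 5 overlapped. A list of 26 genes of G2 and mitosis had 21 higher and 5 lower, with a median log2 difference of 0.34.

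In the single cells, the question was how replication genes vary among KIT- germ cells and their deposited clusters. Totals ran from 182163 to 6802787 expected counts per cell (median 1585930), and 6962 to 13497 genes were detected, meaning an expected count of at least 1. The germ markers Ddx4, Dazl, Sall4, Zbtb16 and Mael were detected in all 71 cells and Tdrd1 in 70. Of the macrophage markers, Lyz2, Tyrobp and Laptm5 were detected in 1 cell each, and C1qa, C1qb, C1qc and Adgre1 in 0. Fcer1g was detected in 24 cells, Cd68 and Apoe in 17 each, Csf1r in 16 and Ptprc in 6. The most widely detected Sertoli, myoid and Leydig markers were Sox9, Smoc2 and Star, in 65, 64 and 61 cells. Clusters I to IV held 9, 32, 24 and 6 cells. The authors' clusters were built from these cells, which are 1 sample, so differences between clusters are descriptions and carry no test. Counts were scaled to the cell's total (CPM), and since CPM is not adjusted for length it was compared only within a gene.

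A replication score, the mean of log2(CPM + 1) over the 31 members, ran from 4.29 to 7.94 with a median of 6.86. Cluster IV had the lowest scores, with a median of 5.92 (4.29 to 7.08). Cluster II had a median of 6.97 (5.87 to 7.94), cluster III 6.89 (5.56 to 7.57) and cluster I 6.48 (5.82 to 7.59). The mean score of cluster IV differed from that of all other cells by -1.03, where the cells of cluster IV had a standard deviation of 0.90. Of the 6, cell 63 was lowest of all 71 at 4.29. The rest lay inside the range of the other clusters, 5.56 to 7.94, with 4 cells between 5.74 and 6.21 and cell 18 at 7.08. Cluster IV cells were also shallower, with a median of 1121541 counts and 8805.5 genes, against 1601407 counts and 10893.5 genes in cluster II. With every cell thinned to 182150 counts the difference was -1.06, and without cell 63 it was -0.72. The depth of cell 7, the shallowest, changed it little, to -1.01 without that cell.

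**Figure D3:**
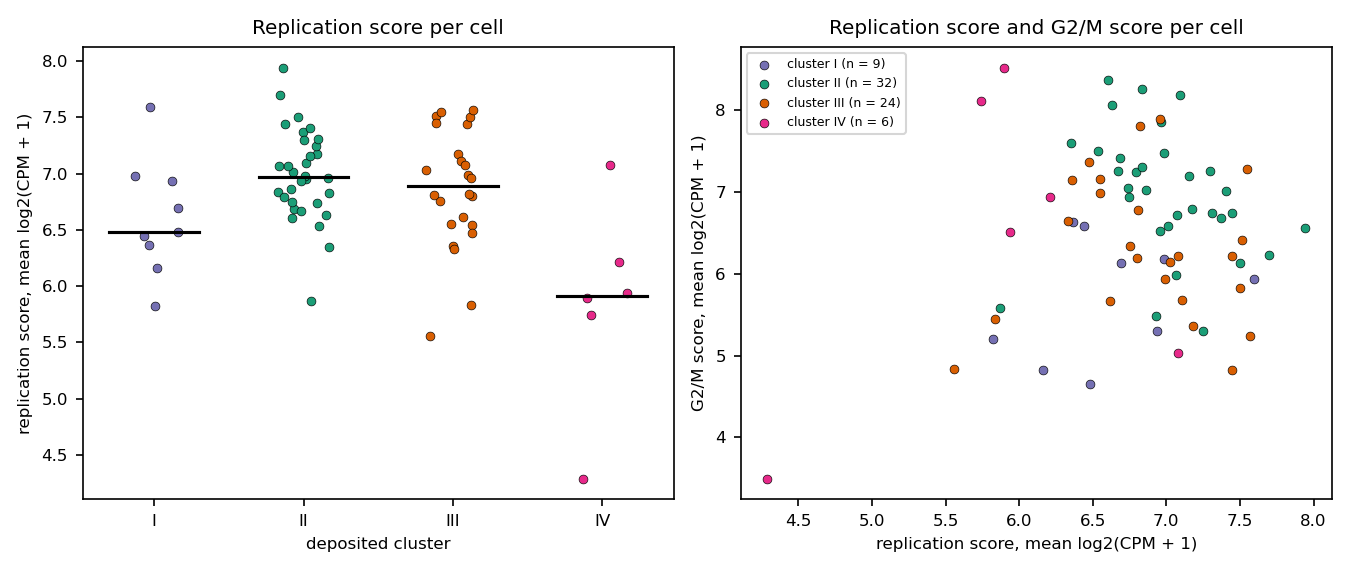
Left, replication score of each of the 71 cells by deposited cluster, in mean log2(CPM + 1), with lines at the medians. Right, the same score against the score of 26 G2 and mitosis genes, with cells coloured by cluster. The 6 cells of cluster IV include the lowest replication score, 4.29, and the highest G2/M score, 8.52.

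The members themselves were lower in cluster IV in large number. A member was counted as lower or higher when its mean log2(CPM + 1) differed by at least 1 from that of all other cells. In cluster IV, 17 of the 31 members (54.8%) were lower by this rule and 1 was higher, against 19.9% and 5.56% of 14861 genes detected in at least 10 cells. Against genes detected about as widely, in at least 63 cells, the share was 20.1%. There, 63.2% of genes were below 0, and 26 of the 31 members were. The members' median difference was -1.09, and that of all genes -0.29. Without cell 63, 12 members were lower and 3 higher, against 20.3% and 6.78% of all genes. Mcm2, Cdc6, Mcm10, Rfc2, Rrm2 and Chaf1b were lower under all 6 settings tried, and 21 members were lower under at least 1 of them.

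Cdc6, the licensing factor, had the largest difference of the members in cluster IV. In cluster IV the median of Cdc6 was 7.38 CPM (lowest 0, highest 75.57), against medians of 85.58, 107.8 and 193.4 CPM in clusters I, II and III. It was at 0 in 3 of the 6 cells, and its difference was -3.65. Summed over the cells of a cluster, Cdc6 reached 28.6 CPM in cluster IV (95% Poisson interval 24.5 to 33, counting error only) and 135 and 171 CPM in clusters II and III. All 6 cells of cluster IV were below the medians of the other 3 clusters. Mcm10 had a median of 85.53 CPM (7.92 to 226.6) against 219.2, 161.2 and 196.3 CPM. Gins2 had a median of 0.542 CPM against 17.25, 29.74 and 24.38 CPM, but 89.4% of its cluster IV counts came from cell 18, so that the sum, 40.9 CPM, came close to the 38.7 CPM of cluster II. Gins1 differed by -0.13.

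Within the helicase, 4 of 6 subunits were lower. In cluster IV the median of Mcm2 was 202.4 CPM (0 to 374.7), against 437.3, 408.1 and 434.1 CPM, a difference of -2.55. All 6 cells were below the medians of the other clusters. Mcm2 was at 0 CPM in cell 7 and 20.4 CPM in cell 63, and at 198.7 CPM or more in the rest. Its difference of medians was -1.04, and it stayed past the rule without either cell. Mcm6 differed by -1.71, Mcm5 by -1.16 and Mcm3 by -1.12, and these also rested in part on single cells. Mcm6 was at 0 CPM in cell 7 and 30.5 CPM in cell 63, and at 197.4 CPM or more in the rest. Without cell 7 Mcm6 was not past the rule, and without cell 63 Mcm3 and Mcm5 were not. As a difference of medians, Mcm6 was at -0.58, Mcm3 at -0.65 and Mcm5 at -1.24. Mcm4 differed by -0.93, but cell 18 had the highest Mcm4 value of all 71 cells, 1551 CPM, and the sum over cluster IV, 630 CPM, was above the 542 CPM of cluster II. Mcm7 was not lower. Its median was 831.2 CPM in cluster IV (244 to 1261) and 286.7, 560.2 and 783.9 CPM in clusters I, II and III, and its difference was 0.26. The E2F words shown above were present in the windows of both Mcm7 and Cdc6. Among the 8 members with such a word, 4 were lower in cluster IV, with a median difference of -1.01, and among the 15 without it 11 were lower, with a median of -1.19. Any part of these words in the differences was not tested.

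**Figure D4:**
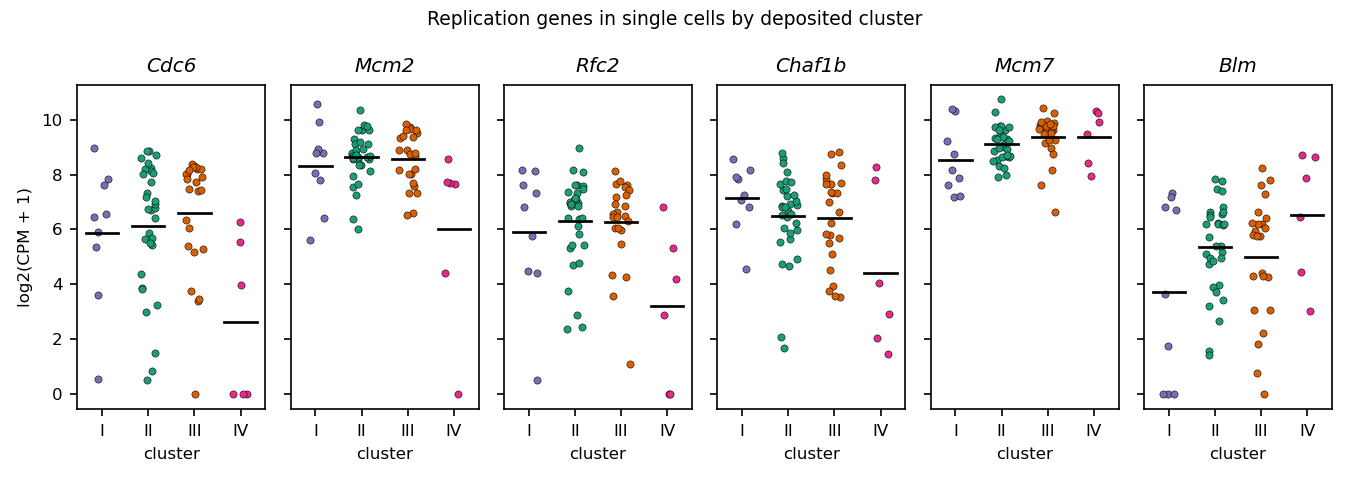
Log2(CPM + 1) of 6 members in each of the 71 cells, by deposited cluster, with lines at the means. Cdc6, Mcm2, Rfc2 and Chaf1b are lower in cluster IV, Mcm7 is not, and Blm is higher there and lowest in cluster I.

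At the fork, all 7 genes were below 0 in cluster IV and 3 were past the rule. Rfc2 had a median of 11.85 CPM (0 to 111.8) against 112.5, 117.8 and 91.23 CPM, a difference of -3.02, and cell 18 again gave 84.9% of its counts there. Pcna had a median of 158.7 CPM (18.4 to 461.1) against 317.9, 249.3 and 239.5 CPM, a difference of -1.19. Without cell 63 Pcna was not past the rule, and its difference of medians was -0.67. Prim1 differed by -1.01, but its median of 99.32 CPM lay between those of clusters I and II, 65.23 and 144.4 CPM, and cells 9 and 63 were lowest at 0.73 and 11.3 CPM. Fen1 and Lig1 differed by -0.28 and -0.06. Rrm2 had a median of 28.85 CPM (2.93 to 146.7) against 65.58, 138.3 and 144.5 CPM, a difference of -1.89. Rrm1 differed by -1.25, yet its median of 466.03 CPM was near the 475.9, 525.1 and 462.5 CPM elsewhere, and cell 63 alone was at 0.84 CPM where the other 5 cells were at 315 or more. Tyms differed by -0.49.

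The histone-linked genes were both lower. Chaf1b had a median of 11.04 CPM (1.76 to 311.8) against 153, 111.1 and 112.9 CPM, a difference of -2.12, with 4 cells at 15.57 CPM or less and cells 7 and 18 at 311.84 and 221.85 CPM. Slbp had a median of 148.7 CPM against 186.1, 274.7 and 302.2 CPM, a difference of -1.09. Without cell 63 Slbp was not past the rule, and its difference of medians was -0.89. Repair and checkpoint genes went a different way. Ung was lower at -1.13, though not past the rule without cell 63, and its difference of medians was -0.996. Blm was higher at 1.53, with a median of 160.4 CPM (7.24 to 416) against 11.48, 46.36 and 54.42 CPM. Exo1 was at 0.86, Usp1 at 0.33 and Tipin at 0.07, so 4 of the 6 were above 0. Of the regulators, E2f8 and Ccne1 were lower at -1.55 and -2.20. At an expected count of at least 1, Ccne1 was detected in none of the 6 cells of cluster IV. Cell 62 held 0.874 CPM, an expected count below that cut. In clusters I, II and III, Ccne1 was detected in 3 of 9, 16 of 32 and 14 of 24 cells. Ccne2 differed by -0.22.

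Clusters I to III differed less. In cluster I, Pola1 was higher and Exo1 and Blm were lower, against 2.81% and 14.3% of all genes. Pola1 had a median of 141.1 CPM in cluster I against 53.48, 46.55 and 39 CPM in clusters II, III and IV, a difference of 1.35. Exo1 and Blm differed by -1.51 and -1.62 in cluster I, and Blm was undetected in 3 of its 9 cells. These are the genes that were highest in cluster IV, where the median of Exo1 was 346.3 CPM against 85.33 CPM in cluster I. In cluster II, Prim1 and E2f8 were higher, at 1.17 and 1.08, and 0 were lower, against 6.96% and 0.471% of all genes. Prim1 had a median of 144.4 CPM in cluster II and 65.23, 89.04 and 99.32 CPM in the others. In cluster III, 0 members were past the rule in either direction, against 2.41% and 2.48% of all genes, and the nearest was Cdc6 at 0.97.

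**Figure D5:**
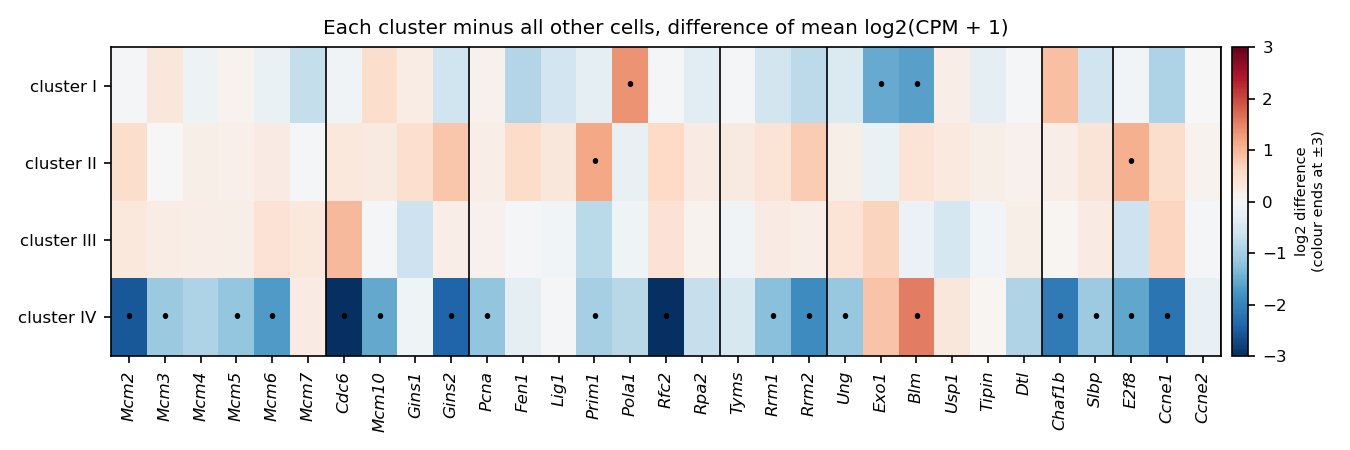
Difference of mean log2(CPM + 1) between each deposited cluster and all other cells, for the 31 members, with vertical lines between roles. Dots mark differences of at least 1, and the colour scale ends at 3 in each direction. Blue fills much of the row of cluster IV, with Blm and Exo1 in red.

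The wider pathway gave a similar picture for cluster IV. Of 74 other replication genes, 31 were lower and 3 higher by the same rule, with a median difference of -0.67, against 19.9% and 5.56% of all genes and a median of -0.29. The 5 with the largest differences were all lower. In cluster IV the median of Pold2, an accessory subunit of polymerase delta, was 0 CPM (0 to 1.58), against 25.17, 24.2 and 11.67 CPM in clusters I, II and III, a difference of -3.64. Pold1, its catalytic subunit, had a median of 8 CPM against 161.1, 196.9 and 87.52 CPM, a difference of -3.59. Rad9, a checkpoint clamp subunit, differed by -2.74, Rfc5, a clamp loader subunit, by -2.57 and Gart, a purine synthesis enzyme, by -2.55. The 26 genes of G2 and mitosis had 2 lower and 1 higher in cluster IV and a median of -0.019, beside the same shares of all genes. In cluster I, where 14.3% of all genes were lower (median -0.19), 13 of those 26 were lower (median -1.09) and 2 of the 31 replication genes (median -0.14). The 6 germ cell markers had a median difference of 0.0040 in cluster IV.

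Across all 71 cells, 18 members were detected in every cell, and 30 of 31 in at least 63 cells. After thinning to 182150 counts, 9 members were detected in every cell. Ccne1 was the rarest, detected in 33 cells or 46.5% (exact Clopper-Pearson 95% interval 34.5% to 58.7%), with a median of 0.816 CPM and a highest value of 130.6 CPM. The members that varied most were Cdc6, Ccne1, Pola1, Blm and Gins2, with standard deviations of log2(CPM + 1) from 2.03 to 2.55. The steadiest were Tipin, Rpa2, Mcm3, Mcm7 and Slbp, from 0.62 to 0.91. Tipin, for example, was between 82.16 and 742.8 CPM in all 71 cells, whereas Cdc6 ran from 0 to 492.4 CPM. Of the 5 that varied most, Gins2 had a median of 24.79 CPM and Ccne1 of 0.816 CPM.

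Over the cells, members were weakly correlated with each other. The median Pearson correlation over their 465 pairs was 0.14 (0.13 after thinning), against 0.018 for pairs of other genes detected in at least 63 cells and 0.26 for pairs of G2 and mitosis genes. The cells are 1 sample and differ in depth, so these values are descriptions. Rrm1 with Slbp was the highest at 0.58, followed by Pcna with Rrm2 at 0.56, Rfc2 with Slbp at 0.51 and Mcm6 with Pcna at 0.47. With each cluster centred on its own mean, these 4 were 0.51, 0.51, 0.43 and 0.42. The 15 pairs within MCM2-7 had a median of 0.19, and 1 of them was above 0.4, Mcm2 with Mcm6 at 0.45. Members and G2/M genes had a median of 0.014 over 806 pairs. The replication score and the G2/M score had a Pearson correlation of 0.13 and a Spearman correlation of -0.11 over the 71 cells, and of -0.25 and -0.47 within the 32 cells of cluster II. The same values were 0.28 and 0.18 in cluster I, -0.03 and -0.18 in cluster III, and 0.35 and -0.03 in cluster IV. Single cells thus paired a low replication score with both high and low G2/M scores. In cluster IV, cell 9 had a replication score of 5.90 and a G2/M score of 8.52, and cell 63 had 4.29 and 3.50.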

How the data were processed

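RNA of germ cells was measured in 4 libraries of sorted cells and 71 single cells. TPM per gene, as deposited by the authors for the sorted cells, came from RSEM after Trim Galore, and the Smart-seq2 method amplified the RNA, per the submitters' processing notes and the labels' protocols. Expected counts per gene, as deposited for the single cells, came from Salmon after Trim Galore, per the same notes, and the cells were captured on a Fluidigm C1 machine, per the labels' protocols. The notes name mm9 as genome build. For tool versions and annotation, nothing is given in the sources used here. The read depth behind the TPM values is unknown. Columns of the single-cell table say P6 where the sample titles say P5.5, and were matched by cell number. The 5 other samples of the series were not analysed here.

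The CD87 test was limma (3.58.1, R 4.3.3), applied to log2(TPM + 1) with a variance trend, two-sided, over genes at 1 TPM or more in at least 2 libraries. On that scale the change of a gene with low TPM comes out too small. The fit had no replicate block. In the cells, 22 rows whose names had become dates (at most 0.609% of a cell's counts) were left out, CPM came from the remaining totals, and expected counts were rounded for thinning to 182150 counts. No cell was removed and no doublet caller was run. Counts are reads without molecular identifiers, so intervals cover counting error only. Scripts were tested on simulated data (Python 3.11.15, pandas 2.3.3, numpy 2.4.6, scipy 1.17.1).

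The members, gene lists and tests were chosen with earlier results of these data known. Of 75 listed pathway genes, 74 were found. Genes named with values are those with the 10 smallest limma p, the 3 largest and 3 smallest differences, the highest and lowest of each role, those past the size rule in a cluster, and those with the 5 widest and 5 narrowest spreads over cells. The remaining members are given in short. Alternatives were other pseudocounts, filters and scalings, thinning, medians, and leaving out libraries or cells. Promoter sequences and motifs are from RefSeq, build GRCm38.p6, not the build of the files.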

Additional observations from a re-analysis of the deposited data

Results flagged for a closer look

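Among 64 groups of cells (1 gene in 1 cluster, and the scores) examined for a single value far from the rest, 7 had one. The rule set the gap to the nearest value against the range (Dixon's criterion). Its chance rate of 1 in 20 assumes normal values. These values include zeros, and the same cells recur across groups, so the 7 cannot be set against that rate. All values are on the log2(CPM + 1) scale, and 6 were the lowest value of their cluster. In cluster IV, cell 63 stood apart 3 times. Its Rrm1 was 0.88 where the nearest cell had 8.30, its Lig1 4.87 where the nearest had 8.30, and its Usp1 0 where the nearest had 6.99. Also in cluster IV, Ccne1 was 0.91 in cell 62 and 0 in the other 5 cells, a value below 1 count. In cluster I, Rfc2 was 0.53 in cell 53 (nearest 4.40), Rrm1 was 4.21 in the same cell (nearest 6.996), and Pola1 was 1.40 in cell 23 (nearest 5.72).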

How the results depend on the processing

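The 3 genes called in the CD87 comparison became 1 with a pseudocount of 0.1, 1 with no filter, 1 after rescaling without the most abundant row and 0 without a variance trend (408 higher and 265 lower at an unadjusted limma p under 0.05). Leaving out a library gave 10 to 2988 calls, the highest without CD87+ library 1, where a lone CD87+ library is assumed to vary like the CD87- ones. Members called then ranged from 0 to 3 (Prim1, Chaf1b and Gins1 without CD87+ library 1), members higher from 20 to 25, and their median from 0.083 to 0.39. Gins1 ranged from -2.32 to 0.97 and Ung from -0.97 to 0.040, both above 0 without CD87+ library 2. Same-numbered libraries did not deviate together (correlation 0.068), so the numbers were not taken as pairs. With the replicate number as a block, 130 genes were called and 1 member (Prim1, limma adjusted p = 0.00796).

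In the cells, thinning to 182150 counts left 9 members detected in every cell in place of 18, and gave 1 lower member in cluster III (E2f8). With a pseudocount of 10, members lower in cluster IV were 11 in place of 17 (all genes 5.91% in place of 19.9%), lower in cluster I 1 (3.63%), and higher in cluster II 0 (0.619%). With a difference of medians, 4 were lower in cluster I, 0 higher in cluster II and 2 higher in cluster III, against 18%, 13% and 5.61% of all genes. Without cell 63, an alternative chosen after seeing the data, 3 were higher in cluster IV. Cluster IV's score difference was between -1.28 and -0.69 under all alternatives. The causes of these changes were not tested. Cluster IV rests on 6 cells, and the shallowest of all 71 cells, at 182163 counts, is among them.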
